A study of Mus musculus with 12 samples.

Results

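Interleukin-6 signalling and the acute-phase genes that follow it were read in isolated mouse cardiomyocytes. The 10 genes, out of 22584 in the count table, are the cytokine Il6, its receptor chains Il6ra and Il6st, the oncostatin M receptor Osmr, the transcription factor Stat3, the feedback inhibitor Socs3 and the secreted or induced products Serpina3n, Serpina3g, Saa3 and Chil1. They were taken from the table by symbol, and all 10 were found. Saa3, Serpina3g and Chil1 had been picked because they weigh heavily on the first principal component of all libraries, where they ranked 9, 10 and 13 of 15004 genes by loading. Serpina3n ranked 23, Il6 61 and Osmr 156. The values of Saa3, Serpina3g and Chil1 are therefore given as a description with no test, and tests are given for the other 7.

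Polyadenylated RNA came from the hearts of C57BL6 mice, all labelled WT, in 4 groups of 3 libraries. The CKD JV001 group had AngII, a high salt diet and the removal of 1 kidney (the model that the series calls CKD) and was injected with JV001, an agent known here only by that code name. The CKD saline group had the same model with saline, the sham JV001 group a sham operation with JV001, and the sham saline group a sham operation with saline. A duration of 12 weeks is stated for all groups but CKD saline. The labels name no age or sex and do not say that libraries came from separate animals, so p-values measure the spread between these libraries, which may be technical. Library totals were 25.2 to 37.0 in units of 1e6 counts.

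Interleukin-6 binds the chain encoded by Il6ra, and the pair then engages the shared signal chain gp130, encoded by Il6st. Oncostatin M uses gp130 together with the chain encoded by Osmr. Gp130 activates JAK kinases, which phosphorylate STAT3, and STAT3 enters the nucleus and switches on Socs3, whose product blocks the receptor again, along with acute-phase genes. In the heart this pathway is known for the protection of cardiomyocytes under acute stress and for inflammation and remodelling under lasting stress. Acute-phase proteins are best known from liver, but Saa3 and Serpina3n are also made outside it in mice.

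STAT3 and NF-kB, a transcription factor of inflammatory signalling, bind short DNA motifs, so the windows from 250 bases before to 50 bases after the annotated start were searched for a STAT motif (TTCNNNGAA, which reads the same on both strands) and for the NF-kB consensus on either strand. All 10 genes had 1 window in the RefSeq promoter table of build GRCm38.p6, which is not the build GRCm39 of the counts. The STAT motif was in 2 of 10 windows, those of Socs3 and Serpina3g, and in 8.3% of all 32851 windows. The NF-kB motif was in 3 of 10, those of Il6, Serpina3g and Chil1, and in 5.8% of all windows. The windows of Il6, Socs3 and Serpina3g are shown because they are a ligand, a feedback inhibitor and an induced product with a match; capitals mark the matches. Counted from the start, they begin at base -44 in Il6, -154 in Socs3, and -85 (NF-kB) and -33 (STAT) in Serpina3g. A match is a run of letters and says nothing of binding.
Il6 (chr5:30012864-30013163, plus strand): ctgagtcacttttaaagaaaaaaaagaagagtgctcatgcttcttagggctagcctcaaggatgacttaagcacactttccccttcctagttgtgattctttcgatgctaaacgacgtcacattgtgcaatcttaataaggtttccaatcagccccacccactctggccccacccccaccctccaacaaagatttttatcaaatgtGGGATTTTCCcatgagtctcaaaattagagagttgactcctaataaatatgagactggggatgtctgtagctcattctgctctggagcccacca
Socs3 (chr11:117969317-117969616, minus strand): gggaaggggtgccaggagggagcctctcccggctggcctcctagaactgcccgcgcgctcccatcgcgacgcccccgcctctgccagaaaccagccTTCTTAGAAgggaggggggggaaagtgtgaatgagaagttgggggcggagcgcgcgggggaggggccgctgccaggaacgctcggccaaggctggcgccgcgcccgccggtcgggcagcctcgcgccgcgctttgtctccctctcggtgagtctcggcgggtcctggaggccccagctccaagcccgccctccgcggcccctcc
Serpina3g (chr12:104235897-104236196, plus strand): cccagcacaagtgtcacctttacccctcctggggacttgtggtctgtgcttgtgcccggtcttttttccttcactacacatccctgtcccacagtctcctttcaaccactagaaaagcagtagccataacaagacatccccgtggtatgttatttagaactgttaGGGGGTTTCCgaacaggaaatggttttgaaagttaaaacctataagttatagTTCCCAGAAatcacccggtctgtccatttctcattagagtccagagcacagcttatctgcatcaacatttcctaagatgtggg

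Before the results, the libraries that stood apart are given. The first component held 52.3% of the variance, with CKD JV001 library 3 at 138 and CKD saline library 3 at 62.5 on it. Within sham saline, library 1 lay at -0.586, against -67.3 and -74.5 for libraries 2 and 3. In CKD JV001 libraries 1 to 3 the 8 ventricular cardiomyocyte markers summed to 46232, 46682 and 20965 CPM (counts per 1e6 counts, TMM-scaled), against 75679, 76068 and 42373 CPM in CKD saline libraries 1 to 3. All 8 were detected in every group, and the sums in the sham libraries were 62009 to 84462 CPM. Markers of other cells were present too, and their values stand beside the results they move with.

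The level of the pathway was ordered by FPKM, which counts reads per gene length and library size. The shared chain and the transducer were the most abundant of the 10: Il6st had a median of 34.4 FPKM over the 12 libraries and Stat3 26.9 FPKM. Socs3 followed closely at 26.8 FPKM, then Osmr at 3.65 and Serpina3n at 2.37 FPKM. The specific chain Il6ra was low at 0.729 FPKM, as were Il6 at 0.309, Serpina3g at 0.222, Saa3 at 0.115 and Chil1 at 0.0493 FPKM. CKD JV001 library 3 had another order: Serpina3n led with 194 FPKM, before Saa3 with 148, Socs3 with 119, Serpina3g with 109, Stat3 with 83.2, Il6st with 82.8 and Osmr with 68.9 FPKM. It was the highest of the 12 libraries for 9 of the 10 genes. The exception was Il6ra, highest in CKD saline library 3. Saa3, Serpina3g and Chil1 were picked on the component where CKD JV001 library 3 lay farthest out, so their peak there is no separate result. The share of all genes highest in that library was not counted.

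**Figure D1:**
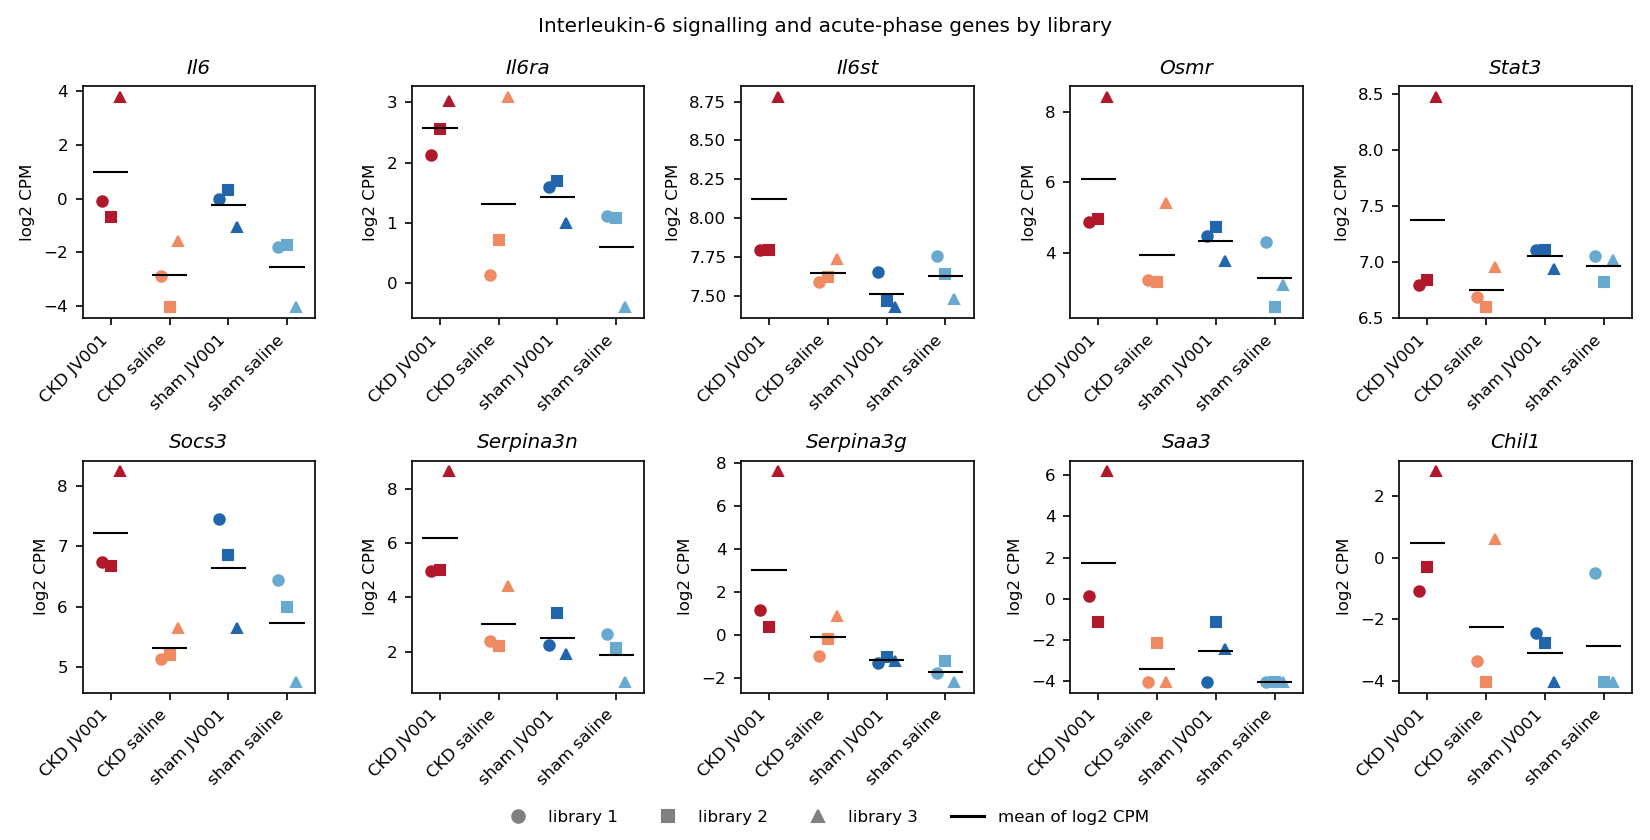
Log2 CPM (prior count 2) of the 10 genes in each library, with the 4 groups on the x axis, point shapes for libraries 1 to 3 and a line at the mean of each group. CKD JV001 library 3 is the top point in 9 of 10 panels, which include the 3 genes picked on the first component. In Il6st and Stat3 the other 11 libraries lie close together.

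The first comparison sets JV001 against saline within the CKD model. Il6, Socs3, Serpina3n and Il6st were higher in every CKD JV001 library than in any CKD saline library, and Stat3 stood apart in library 3 of CKD JV001. Taken over all 12 libraries, 0 of 15004 genes passed edgeR's quasi-likelihood test (0%; 2707, or 18%, at an unadjusted p under 0.05; DESeq2 called 67), and so 0 of the 7 tested genes did. Of the 7, 6 had an unadjusted p under 0.05. All 7 fold changes were positive, with a median log2 value of 2.08 against 0.02 for all genes, and of 0.56 without CKD JV001 library 3. The groups did not overlap, with CKD JV001 higher, in 4 of 7 genes (Il6, Il6st, Socs3 and Serpina3n), and in 8.22% of all genes; CKD JV001 was lower without overlap in 0 of 7, and in 6.04% of all genes. Same-numbered libraries of both CKD groups deviated together, but library 3 stood apart in both, and the labels give no pairs. With the replicate number as a block within these 6 libraries, 4 of the 7 passed edgeR's test (Il6, Osmr, Socs3 and Serpina3n). Il6 is counted among these 4, and among the 4 without overlap, though it passed the filter on low counts only through JV001 libraries. In that fit 19.9% of 14289 genes passed and 10.4% passed as higher, while a block over all 12 libraries called 0 genes. Results with the block rest on a pairing that the labels do not state. DESeq2 called 1 of the 7, Socs3, and 0.452% of all genes. The block over the 2 pairs without library 3 passed 7 of 7 genes, but also 50.5% of all genes. That fit has too few libraries left to estimate the spread, so its calls carry no weight.

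Il6, the ligand, had 28, 21 and 471 reads in CKD JV001 libraries 1 to 3, or 0.887, 0.557 and 13.8 CPM, against 2, 0 and 7 reads in CKD saline libraries 1 to 3, or 0.074, 0 and 0.278 CPM. Every CKD JV001 library lay above every CKD saline library, and library 3 was highest in both groups. The log2 fold change was 5.45 (SE 1.52, adjusted p 0.276), or 5.20 (SE 0.65, adjusted p 0.0133) with the block. A count of 0 allows up to 3 reads, which is 0.099 to 0.119 CPM in the CKD saline libraries, against their mean of 0.117 CPM, so the size of this ratio is uncertain. Without CKD JV001 library 3 it was 2.62. Il6 passed the filter on low counts only through the JV001 groups, and with the block only through CKD JV001. Its tests here are therefore no separate support for the difference.

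Among the receptor chains, Il6st, the chain that all members of this cytokine family share, had 222, 222 and 440.2 CPM in CKD JV001, against 193, 197 and 213 CPM in CKD saline. The groups did not overlap, but CKD JV001 libraries 1 and 2 lay only just above CKD saline library 3. Il6st had a log2 fold change of 0.55 (SE 0.24, adjusted p 0.276), 0.49 with the block (adjusted p 0.178) and 0.14 without CKD JV001 library 3. Osmr, the oncostatin M chain, had 29.4, 30.8 and 348 CPM in CKD JV001, against 9.33, 8.94 and 42.9 CPM in CKD saline. CKD saline library 3 lay above CKD JV001 libraries 1 and 2, so the groups overlapped. For Osmr the log2 fold change was 2.74 (SE 1.00, adjusted p 0.276), or 2.18 (SE 0.33, adjusted p 0.0166) with the block and 0.56 without CKD JV001 library 3. Il6ra, which makes a cell responsive to interleukin-6 itself, had 4.34, 5.86 and 8.07 CPM in CKD JV001, against 1.04, 1.58 and 8.50 CPM in CKD saline. CKD saline library 3 was above all the CKD JV001 libraries. Its log2 fold change was 0.72 (SE 0.69, adjusted p 0.506), or 1.26 with the block (adjusted p 0.122), and it was called in neither. Without CKD saline library 3 it was 2.21 (adjusted p 0.0348).

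Stat3, the transducer, had 111, 114 and 356 CPM in CKD JV001, against 103, 96.4 and 124 CPM in CKD saline. Only library 3 of CKD JV001 lay above the CKD saline range. The log2 fold change was 0.85 (SE 0.37, adjusted p 0.276), 0.63 with the block (adjusted p 0.219) and 0.07 without CKD JV001 library 3. Socs3, the inhibitor that STAT3 induces, had 107, 102 and 303 CPM in CKD JV001, against 34.8, 36.4 and 49.8 CPM in CKD saline. All CKD JV001 libraries lay above all CKD saline libraries, also libraries 1 and 2 when taken alone. The log2 fold change was 2.08 (SE 0.56, adjusted p 0.276), 1.91 with the block (SE 0.27, adjusted p 0.0154) and 1.37 without CKD JV001 library 3.

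Serpina3n, a secreted inhibitor of serine proteases induced in the acute phase, had 31.0, 32.0 and 402 CPM in CKD JV001, against 5.15, 4.62 and 21.6 CPM in CKD saline. The groups did not overlap. The log2 fold change was 3.89 (SE 1.08, adjusted p 0.276), 3.23 with the block (SE 0.39, adjusted p 0.0126) and 1.59 without CKD JV001 library 3. Leaving out CKD saline library 3, the test called Il6, Il6ra, Osmr (3.91), Socs3 and Serpina3n (5.01), while 21.3% of all genes passed. CKD saline libraries 1 and 2, which are left in that case, differed by 4.96 times sampling noise (median chi-square over genes), the least of the 12 pairs of libraries within a group, where the others ranged from 7.74 to 58.0.

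The 3 genes picked on the first component were highest in CKD JV001 library 3, the library farthest out on that component. Serpina3g, a mouse relative of Serpina3n that acts inside the cell, had 67, 45 and 6596 reads in CKD JV001, against 12, 24 and 44 reads in CKD saline. Those are 2.12, 1.19 and 194 CPM, against 0.444, 0.792 and 1.75 CPM, and CKD JV001 library 2 lay within the CKD saline range. The mouse genome holds several Serpina3 copies in a cluster. Reads that match more than 1 of Serpina3g, Serpina3n and Serpina3f may have been dropped or given to the wrong copy in the counting, whose settings are not stated. Saa3, an inducible serum amyloid A, had 33, 15 and 2491 reads in CKD JV001, against 0, 5 and 0 reads in CKD saline. Chil1, a secreted chitinase-like protein, had 13, 28 and 235 reads in CKD JV001, against 1, 0 and 37 reads in CKD saline. No fold is given for Saa3 and Chil1, because most CKD saline libraries were at or under 3 reads. All 10 genes passed the filter on low counts, Saa3 with more than 10 reads only in the 3 CKD JV001 libraries and in 1 sham JV001 library. Il6 likewise had more than 10 reads only in JV001 libraries.

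Within CKD JV001, library 3 was set against the mean of libraries 1 and 2. The ratio of CPM was 117 for Serpina3g, 101 for Saa3, 19.1 for Il6, 12.8 for Serpina3n, 11.9 for Chil1 and 11.6 for Osmr. It was 3.16 for Stat3, 2.90 for Socs3, 1.99 for Il6st and 1.58 for Il6ra, with a median of 0.92 over all tested genes. Serpina3g ranked 9 and Saa3 11 of 15004 genes by that ratio. Serpina3g, Saa3 and Chil1 were picked on the component where this library lay farthest out, so their ratios and ranks are no separate result. The rank of Il6 was 61, of Serpina3n 111, of Osmr 133 and of Stat3 885. In CKD saline, library 3 over the mean of libraries 1 and 2 was 6.49 for Il6ra, 4.70 for Osmr and 4.43 for Serpina3n, but 1.40 for Socs3, 1.24 for Stat3 and 1.09 for Il6st. Libraries 1 and 2 of both groups give the comparison without either library 3: CKD JV001 over CKD saline was then 6.45 for Serpina3n, 3.89 for Il6ra, 3.30 for Osmr and 2.93 for Socs3, against 1.14 for Il6st and 1.13 for Stat3. No ratio to CKD saline libraries 1 and 2 is given for Il6, which had 2 and 0 reads there. In that reduced set edgeR called Serpina3n, Osmr and Il6ra, while 19.9% of 15285 genes passed.

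Markers of other cells moved with these values. Summed neutrophil markers were 16.4, 15.8 and 317 CPM in CKD JV001 libraries 1 to 3, against 3.66, 4.82 and 81.3 CPM in CKD saline, and all 8 had a higher mean in CKD JV001. They were 0.907 to 6.37 CPM in the sham libraries, where Ly6g was at 0 in both groups and Mmp8 at 0 in sham saline. For the 7 tested neutrophil markers the median log2 fold change in CKD JV001 against CKD saline was 2.09. It was -0.93 without CKD JV001 library 3, and 1.88 without library 3 of both CKD groups. Macrophage markers summed to 240.2, 233 and 529.9 CPM in CKD JV001, against 55.6, 51.5 and 244 CPM in CKD saline (8 of 8 higher). Fibroblast markers summed to 1051, 1087 and 1415 CPM, against 234, 235 and 893 CPM (8 of 8 higher), and endothelial markers to 1896, 1959 and 2172 CPM, against 716, 688 and 2374 CPM (7 of 8 higher), in the same order of groups. Smooth muscle and pericyte markers summed to 977 to 2305 CPM in CKD JV001, against 624 to 1273 CPM in CKD saline (7 of 8 higher). T and NK cell markers summed to 2.06 to 4.46 CPM in CKD JV001, against 0.370 to 3.38 CPM in CKD saline, and B cell markers to 5.64 to 6.55 CPM in CKD JV001, against 0.407 to 7.98 CPM in CKD saline. With the block, 8 of 8 fibroblast, 7 of 8 macrophage, 7 of 8 smooth muscle and pericyte, 5 of 7 tested neutrophil and 3 of 8 endothelial markers passed as higher, 0 of the T and NK cell and B cell markers passed, and 8 of 8 ventricular markers as lower. Of all 14289 genes in that fit, 19.9% passed in either direction and 10.4% passed as higher. In bulk RNA, fewer cells of a type and less RNA per cell cannot be told apart, and the part of these cells in the results above was not tested.

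**Figure D2:**
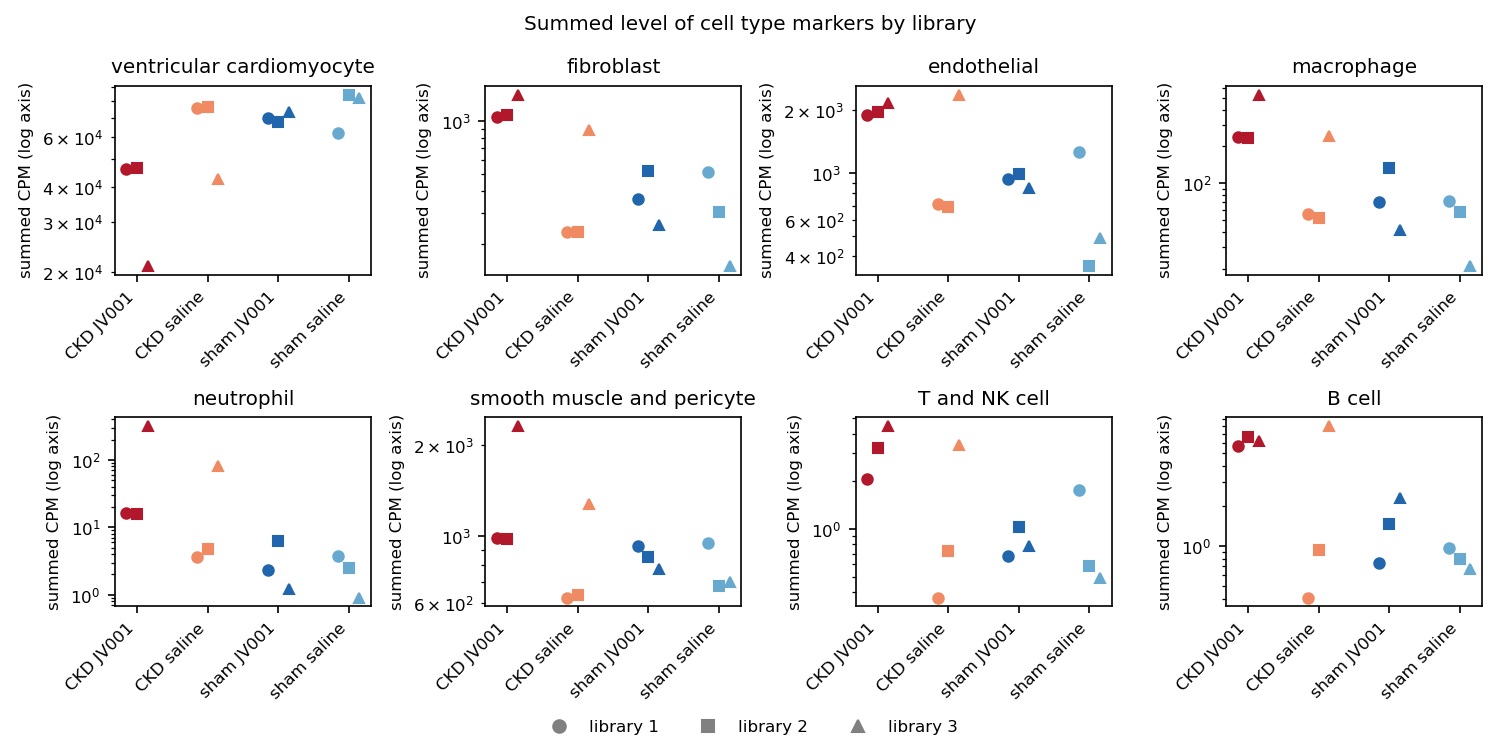
Summed CPM of the markers of 8 cell types in each library on log axes, with the 4 groups on the x axis and point shapes for libraries 1 to 3. Ventricular markers are lowest in CKD JV001 library 3 (20965 CPM), where neutrophil markers are highest (317 CPM).

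CKD JV001 was next set against sham JV001, for the CKD model in mice that had all received the agent. This comparison shares the CKD JV001 libraries with the comparison above. Again 0 of the 7 genes passed edgeR's test, where 3 of 15004 genes (0.02%) did, and 3 of 7 had an unadjusted p under 0.05, as did 27.5% of all genes. All 7 fold changes were positive and the median was 1.18 against 0.02 for all genes. Without CKD JV001 library 3 it was 0.28, and 3 of the 7 were negative. The groups did not overlap, with CKD JV001 higher, in 4 of 7 genes (Il6ra, Il6st, Osmr and Serpina3n), and in 22.9% of all genes. They were lower without overlap in 0 of 7, and in 20.1% of all genes. Serpina3n had 31.0, 32.0 and 402 CPM in CKD JV001, against 4.64, 10.6 and 3.70 CPM in sham JV001. Its log2 fold change of 4.62 (SE 1.11, adjusted p 0.0923) was 2.32 without CKD JV001 library 3. Osmr had 22.4, 26.3 and 13.5 CPM in sham JV001 and a log2 fold change of 2.71 (SE 0.99, adjusted p 0.131), or 0.54 without that library. Il6st had 0.69 (SE 0.24, adjusted p 0.124), or 0.28 without it, and Il6ra 1.18 (SE 0.69, adjusted p 0.272). The fold changes of Il6 (2.59), Socs3 (0.59) and Stat3 (0.55) rested on CKD JV001 library 3, since without it they were -0.23, -0.11 and -0.23. Serpina3g had 11, 15 and 12 reads in sham JV001, below each CKD JV001 library, and Saa3 had 0, 14 and 4. The share of all genes called varied with the setting: it was 0.0467% with RLE factors, 0.0221% with no filter, 0.0925% with a stricter filter and 15.1% with DESeq2. With limma it was 0.551% on log2(FPKM + 1) and 0.0602% on log2(FPKM + 0.1), and edgeR gave 5.51% with only the groups compared and 0.0129% without sham JV001 library 2, while 0 of the 7 genes passed in any of these. Without library 3 of both CKD groups it was 9.38%, and 1 of the 7, Serpina3n, passed.

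For the model without the agent, CKD saline was set against sham saline. None of the 7 genes passed edgeR's test, as 0 of 15004 genes (0%; 743, or 4.95%, at an unadjusted p under 0.05; DESeq2 called 54, or 0.364%) did, and in none did the groups separate, where 4.12% of all genes were higher and 6.44% lower without overlap. Adjusted p-values were 0.941 to 0.997 for the 7. Il6 had 2, 0 and 7 reads in CKD saline, against 7, 9 and 0 reads in sham saline, too few to read a direction. Socs3 had 34.8, 36.4 and 49.8 CPM in CKD saline, against 86.6, 63.8 and 26.8 CPM in sham saline, with a log2 fold change of -0.55 (SE 0.54), or -0.17 without sham saline library 1. Stat3 had -0.21 (SE 0.37) and Il6st 0.02 (SE 0.24). Il6ra (1.18, SE 0.70), Osmr (0.87, SE 0.95) and Serpina3n (1.35, SE 1.00) were highest in CKD saline library 3, without which they had -0.28, -0.26 and 0.28. Without sham saline library 1 instead, Osmr had 1.57 and Serpina3n 1.76. Serpina3g had 12, 24 and 44 reads in CKD saline, against 7, 14 and 6 in sham saline. Saa3 was at 0 in all 3 sham saline libraries, and Chil1 had 20, 0 and 0 reads there.

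For the agent without the model, sham JV001 was set against sham saline. Of the 7 genes 0 passed edgeR's test (0% of 15004; 426, or 2.84%, at an unadjusted p under 0.05; DESeq2 called 3, or 0.0202%), each with an adjusted p of 0.9997. The groups did not overlap in 1 of 7, Il6, and 5.69% of all genes were higher and 6.71% lower without overlap. Il6 had 30, 42 and 14 reads in sham JV001, or 0.928, 1.18 and 0.424 CPM, against 7, 9 and 0 reads in sham saline, or 0.225, 0.239 and 0 CPM. Its log2 fold change was 2.44 (SE 1.37), between 1.86 and 2.96 when any 1 library was left out. Il6 passed the filter on low counts only through the JV001 groups, so this comparison is a description. Socs3 had 174, 115 and 49.8 CPM in sham JV001, against 86.6, 63.8 and 26.8 CPM in sham saline, with a log2 fold change of 0.94 (SE 0.55), and the groups overlapped. It was 0.498 without sham JV001 library 1. Osmr had 0.90 (SE 0.95), Il6ra 0.73 (SE 0.70), Serpina3n 0.62 (SE 0.99), Stat3 0.08 (SE 0.37) and Il6st -0.11 (SE 0.24). Without sham JV001 library 2, the value of Serpina3n was 0.03.

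**Figure D3:**
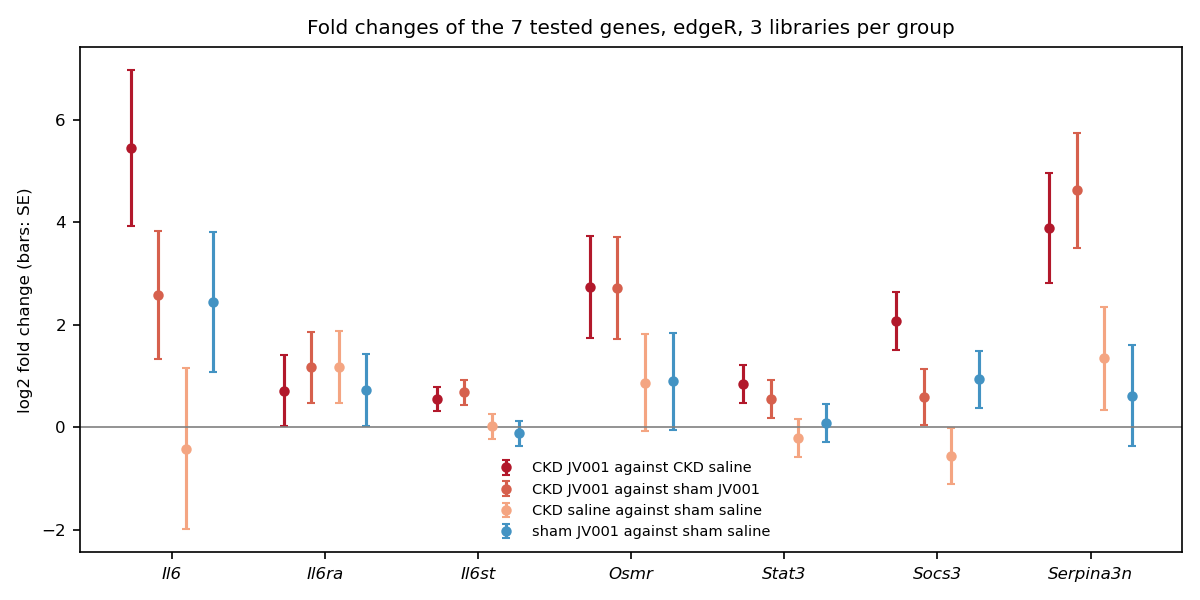
Log2 fold change of the 7 tested genes on the y axis in 4 comparisons, with bars for the SE from edgeR (3 libraries per group). With JV001 in CKD all 7 values lie above 0, Il6 (5.45) against a group of 2, 0 and 7 reads; Serpina3n is at 3.89 there and at 4.62 with CKD under JV001, and Stat3 and Il6st lie nearest to 0 where CKD saline or sham JV001 is set against sham saline.

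The difference between the effects of JV001 in CKD and in sham was tested as an interaction. It was called by edgeR in 0 of the 7 genes and in 0 of 15004 genes (0%; 567, or 3.78%, at an unadjusted p under 0.05; DESeq2 called 2, or 0.0135%), with adjusted p-values of 0.840 for all but Il6ra (0.999). Serpina3n had a log2 value of 3.27 (SE 1.41), Il6 3.01 (SE 2.00), Osmr 1.84 (SE 1.34), Socs3 1.14 (SE 0.77), Stat3 0.76 (SE 0.52), Il6st 0.67 (SE 0.34) and Il6ra -0.01 (SE 0.87). Without CKD JV001 library 3 these were 0.97 for Serpina3n, 0.19 for Il6, -0.33 for Osmr, 0.44 for Socs3, -0.02 for Stat3 and 0.26 for Il6st. For Il6ra the value was 1.47 without CKD saline library 3.

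CKD JV001 had the highest mean of the 4 groups for each of the 7 tested genes. Il6 averaged 5.09 ± 7.56 CPM in CKD JV001, 0.117 ± 0.144 in CKD saline, 0.843 ± 0.384 in sham JV001 and 0.155 ± 0.134 in sham saline (SD, n = 3), so both JV001 groups lay above both saline groups in every library. Socs3 averaged 170.4 ± 114 CPM in CKD JV001, 40.3 ± 8.20 in CKD saline, 113 ± 62.1 in sham JV001 and 59.1 ± 30.2 in sham saline, and CKD saline did not differ from sham saline beyond that spread. Stat3 averaged 194 ± 141, 108 ± 14.3, 132 ± 8.64 and 125 ± 10.6 CPM in the same order of groups, and Il6st 295 ± 126, 201 ± 10.6, 183 ± 15.8 and 198 ± 19.1 CPM. Outside CKD JV001 library 3 Stat3 lay between 96.4 and 137 CPM and Il6st between 172 and 222 CPM in 11 libraries. Serpina3n averaged 155 ± 214, 10.5 ± 9.66, 6.30 ± 3.73 and 4.11 ± 2.20 CPM, Osmr 136 ± 183, 20.4 ± 19.5, 20.7 ± 6.54 and 11.2 ± 7.52 CPM, and Il6ra 6.09 ± 1.88, 3.71 ± 4.16, 2.69 ± 0.660 and 1.63 ± 0.806 CPM. For Osmr the values of CKD saline and sham JV001, neighbours in the order, lay well within each other's spread.

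As a description, log2 CPM of the 10 genes was compared pairwise over the 12 libraries, which share depth and cell content and of which CKD JV001 library 3 is an extreme point. Pearson's r of the 45 pairs had a median of 0.798 with that library and 0.490 without it. Il6 and Socs3 had the highest value without it (0.887, and 0.927 with it), followed by Il6ra and Serpina3n (0.874) and Serpina3n and Serpina3g (0.868). Stat3 and Serpina3g had 0.810 with it and -0.42 without it. Among all tested genes, those most like Socs3 were Tnf (r 0.952), Junb (0.950) and Nfkbiz (0.931), an inflammatory cytokine, a transcription factor subunit and a nuclear regulator of NF-kB, in that order. Those most like Il6 were Zfp57 (0.949), Cxcl2 (0.947) and Ifi207 (0.947), and those most like Osmr were Trim56 (0.995), Ifi203 (0.994) and Cflar (0.990307). Il6ra was most like Gpr153 (0.973), Dbn1 (0.972) and Hmcn2 (0.968), Il6st like the interferon-inducible GTPase genes Irgm1 (0.980) and Igtp (0.978) and Tgm2 (0.980), and Stat3 like Ubqln1 (0.979), Morc3 (0.974) and Med13l (0.970). Serpina3n was most like Tapbpl (0.981), Cybb (0.979) and Tor3a (0.976), Serpina3g like Daxx (0.981), Pfkfb3 (0.977) and Tbrg1 (0.976), Saa3 like Sdf2l1 (0.939), Uap1 (0.938) and Ch25h (0.937), and Chil1 like Dhx38 (0.988), Chd3 (0.987) and Cyth3 (0.981). Without CKD JV001 library 3, Trim56 had 0.992 with Osmr and Tnf 0.929 with Socs3, but Morc3 had 0.735 with Stat3. Sdf2l1 then had 0.745 with Saa3, Daxx 0.882 with Serpina3g and Irgm1 0.836 with Il6st. Other genes were then the most like Saa3, Serpina3g and Il6st.

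The rest of the pathway was read from 7 lists of 80 genes, of which 68 were in the table and 55 were tested. In CKD JV001 against CKD saline 0 of the 55 passed edgeR's test over all libraries (smallest adjusted p 0.276), and 20 passed as higher and 0 as lower with the block, where 10.4% of all genes passed as higher. Serpina3f and Chil3 are among the 20, though both passed the filter on low counts only through CKD JV001. In the other 4 contrasts 0 of 55 passed.

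Of the other ligands of the family, 6 were tested, and 1 passed with the block. Osm, oncostatin M, had 34, 50 and 260 reads in CKD JV001, against 8, 5 and 37 in CKD saline, with a log2 fold change of 2.38 (SE 0.97), or 2.41 with the block (adjusted p 0.0213) and 0.91 without CKD JV001 library 3. Lif, leukaemia inhibitory factor, had 2.58 (SE 1.19), and Ctf1, cardiotrophin-1, -0.80 (SE 0.38), neither called in either fit. The other receptors and the sheddases had 4 of 6 higher with the block: Cntfr, the ciliary neurotrophic factor receptor (2.26, adjusted p 0.0480), Il27ra (1.27, adjusted p 0.0499), and Adam17 and Adam10, which cut the interleukin-6 receptor from the membrane (0.55, adjusted p 0.0347, and 0.54, adjusted p 0.0369). Fitted without the block, Cntfr had 2.71, Il27ra 0.93 and Adam17 0.55, and without CKD JV001 library 3 they had 1.43, 0.30 and 0.24.

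JAK, STAT and adaptor genes had 0 of 9 called with or without the block, and a median log2 fold change of -0.24 against 0.02 for all genes. Jak2, a kinase bound to gp130, had 27.7, 27.0 and 137 CPM in CKD JV001, against 25.9, 29.9 and 34.4 CPM in CKD saline, so that the groups overlapped. The adaptors Gab1 and Grb2 had -0.29 (SE 0.14) and -0.24 (SE 0.12), neither called in either fit. Of 6 inhibitors, Socs1 (1.92, adjusted p 0.0477) and Ptpn6 (1.89, adjusted p 0.0113), a phosphatase abundant in leukocytes, passed as higher with the block. Fitted without the block, they had 2.16 and 1.84, and 0.84 and 1.12 without CKD JV001 library 3. Cish, an inhibitor induced by STAT5, had 57.7, 55.3 and 47.0 CPM in CKD JV001, against 112, 119 and 56.6 CPM in CKD saline. Its log2 fold change of -0.85 (SE 0.24) was called in neither fit (adjusted p 0.276, and 0.0596 with the block), and CKD JV001 library 1 lay above CKD saline library 3. Socs2 had 0.89 (SE 0.45) and -0.11 without CKD JV001 library 3.

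STAT3 target genes had 13 of 13 positive values and a median of 1.39 against 0.02 for all genes, or 0.25 without CKD JV001 library 3. With the block 5 of 13 passed: Cebpd, a transcription factor of the acute phase (2.17, adjusted p 0.0439), Bcl3 (2.79, adjusted p 0.0462), Junb (1.09, adjusted p 0.0119), Il4ra (1.92, adjusted p 0.0358) and Timp1 (1.34, adjusted p 0.0382), an inhibitor of metalloproteinases. Fitted without the block, Cebpd had 2.96, Bcl3 3.79, Il4ra 2.66 and Timp1 1.39, and without CKD JV001 library 3 they had 0.94, 0.55, 0.30 and 0.66. Icam1, an adhesion molecule for leukocytes, had 1045, 1263 and 79980 reads in CKD JV001, against 219, 313 and 1663 in CKD saline. Its log2 fold change of 4.84 (SE 1.58, adjusted p 0.276) was 0.24 without CKD JV001 library 3. Acute-phase genes had 12 of 24 tested, all positive, with a median of 2.19, or 0.95 without that library. With the block 6 passed: C3, the central complement component (2.03, adjusted p 0.0113), Hp, haptoglobin (2.69, adjusted p 0.0113), Cd14 (2.26, adjusted p 0.0113), Cp, ceruloplasmin (0.57, adjusted p 0.0287), Itih4 (2.63, adjusted p 0.0297) and Lbp (2.21, adjusted p 0.0376). Fitted without the block, Itih4 had 2.95, Hp 2.78, Cd14 2.44, Lbp 1.94 and Cp 0.57, and without CKD JV001 library 3 they had 1.62, 0.88, 1.11, 1.02 and 0.37. C3 had 721, 749 and 1244 CPM in CKD JV001, against 149.8, 139.8 and 486 CPM in CKD saline. Lcn2, lipocalin-2, had 163, 136 and 3028 reads in CKD JV001, against 59, 87 and 115 in CKD saline, and did not pass (adjusted p 0.276, and 0.168 with the block). Ptx3, pentraxin-3, had 24, 7 and 954 reads in CKD JV001, against 8, 0 and 1 in CKD saline. Some acute-phase genes best known from liver (Saa1, Saa2, Fga, Crp and Orm1) had at most 17 reads in any library, while others were well detected, such as Cp with 2354 to 5841 reads.

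Among relatives of the acute-phase products, 5 of 12 were in the table and 3 were tested. Serpina3f had 26, 26 and 3039 reads in CKD JV001, against 4, 0 and 4 in CKD saline, and passed with the block (adjusted p 0.0189). It had at most 4 reads in each CKD saline library, so it passed the filter on low counts only through CKD JV001. That test is therefore no separate support for the difference. Chil3, a chitinase-like product of activated macrophages in mice, had 58, 56 and 256 reads in CKD JV001, against 6, 9 and 19 in CKD saline, and passed with the block (log2 fold change 2.93, adjusted p 0.0158). Without the block it had 3.09, and 1.96 without CKD JV001 library 3. It was at 0 in all 6 sham libraries. Chil3 too passed the filter on low counts only through CKD JV001, so its test is no separate support either. Serpina3c had 2.17 (SE 1.09) and -0.04 without CKD JV001 library 3.

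**Figure D4:**
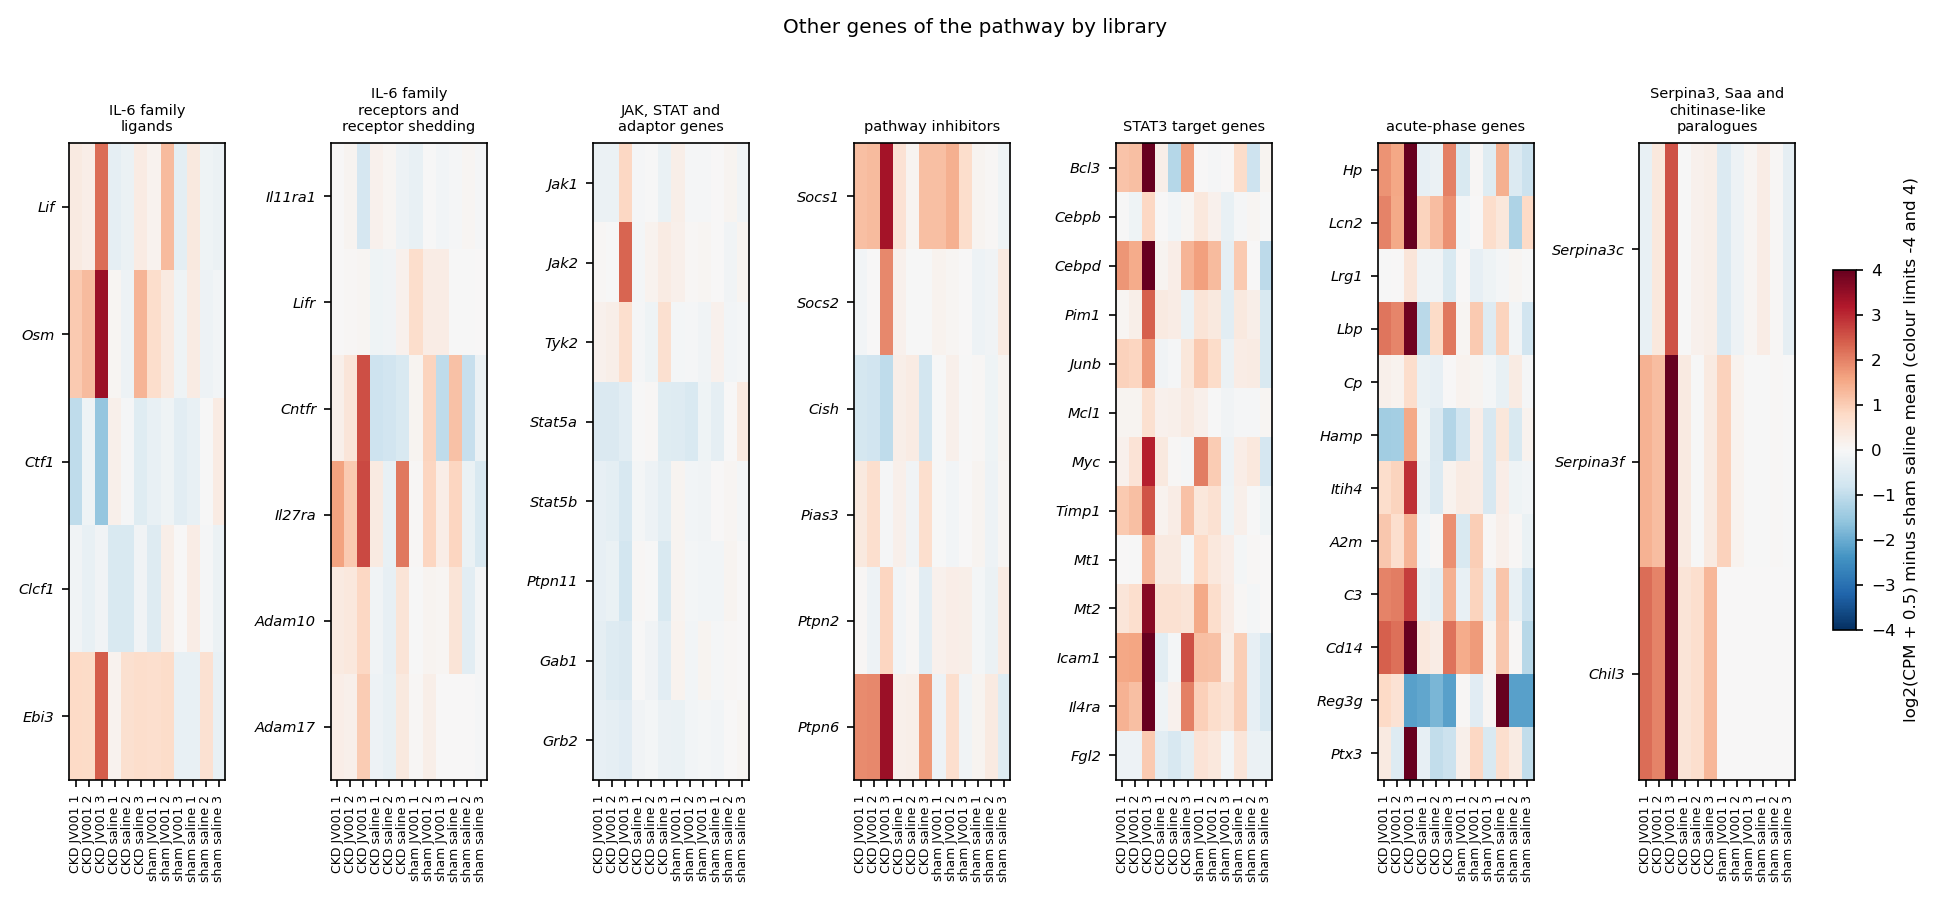
Genes of the 7 pathway lists (rows) in each of the 12 libraries (columns, CKD JV001 to sham saline), coloured by log2(CPM + 0.5) minus the sham saline mean, with colours capped at -4 and 4. The column of CKD JV001 library 3 is the darkest red in STAT3 target and acute-phase genes such as Icam1 (79980 reads). Exceptions are Reg3g, with 0 reads there, and A2m, with 2.29 CPM there and 3.38 CPM in CKD saline library 3. JAK, STAT and adaptor genes stay pale apart from Jak2 in the column of CKD JV001 library 3 (137 CPM).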

How the data were processed

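The authors deposited whole-number read counts per gene, not normalised, and FPKM values of the same genes. HISAT2, HTSeq and fastp, and the build GRCm39, are named per the submitters' processing notes. No source used here gives their versions, the annotation or the strand setting, so overlapping and antisense genes cannot be separated. Per the labels' protocols, 1.3 ug of total RNA entered each library. Columns carry letters for the group and a replicate number, and C was read as CKD saline.

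Counts were fitted with edgeR 4.0.16 (R 4.3.3): TMM factors, filterByExpr with a minimum count of 10, 1 quasi-likelihood fit of the 4 group means over 12 libraries, and Benjamini-Hochberg adjustment over 15004 genes at a threshold of 0.05. The tool was tested on simulated data. Log2 CPM used a prior count of 2. Deposited FPKM was used to order genes by level, and in limma 3.58.1 with a pseudocount of 1 or 0.1 for genes with a mean of at least 0.5. DESeq2 1.42.0, other factors and filters, only the groups compared, and left-out libraries were alternatives. Limits of 3 reads cover counting error only, while each SE from edgeR also takes in the spread between libraries.

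The replicate number was used as a block within the CKD groups, because same-numbered libraries deviated together from their group means (r 0.296, 0.289 and 0.492 for numbers 1 to 3). The labels do not say what a number marks, library 3 stood apart in both groups, and the sham groups did not pass that check. Differently numbered libraries were not compared. Deviations from a mean of 3 libraries are tied to each other, so a far library 3 in both groups bears on all 3 values. Pairing by number is therefore not shown, and every adjusted p-value with the block depends on it.

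The genes, lists and alternatives were chosen with earlier results of these data known. Named list genes were up to 4 per list by smallest p, all that passed with the block, and a few of the lowest or highest counts, the last 2 kinds chosen after their values were seen; 2 genes are counted in their lists but not reported here. For likeness, the 3 genes with the highest Pearson r of log2 CPM were named, leaving out names such as Gm plus a number. Cell types were read from 8 marker lists.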

Additional observations from a re-analysis of the deposited data

How the results depend on the processing

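Depth limits Il6, Saa3 and Chil1, which had few or no reads in most saline libraries. Il6 passed the filter on low counts only through JV001 libraries, so calls of Il6 against CKD saline are no separate support. In CKD JV001 against CKD saline the direction of the 7 tested genes held in every setting, and the count of them called, 0, was 1 with DESeq2 (Socs3), 4 with the replicate block in the 6 CKD libraries, 3 without library 3 of both CKD groups and 0 to 5 when 1 library was left out. All genes called there, 0, were 67, 2850, 3043 and 0 to 3287. A block of only the 2 pairs left without library 3 called 7 of 7, but also 7247 genes (50.5%). It has too few libraries left to estimate the spread, so these calls carry no weight. The replicate block over all 12 libraries called 0 genes in each contrast. In CKD JV001 against sham JV001 the 3 genes called became 7 with RLE factors, 5 with no filter, 12 with the stricter filter, 2016 with DESeq2, 0 with the replicate block, 64 and 7 with limma on log2(FPKM + 1) and log2(FPKM + 0.1), 792 with only the groups compared, 1433 without library 3 of both CKD groups (1 of the 7, Serpina3n) and 0 to 2 when 1 library was left out. DESeq2 called 54 genes in CKD saline against sham saline, 3 in sham JV001 against sham saline and 2 in the interaction, where edgeR called 0. The cause was not tested for any of these.

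Signs turned round as follows. In CKD JV001 against sham JV001, without library 3 of both CKD groups, Il6 had -0.24, Stat3 -0.24 and Socs3 -0.12; the ranges with 1 library left out were -0.23 to 3.12, -0.23 to 0.86 and -0.11 to 1.06. In CKD saline against sham saline Il6st had -0.06 with limma on either FPKM scale (-0.0600 and -0.0617) and a range of -0.0274 to 0.0900, Il6 a range of -1.97 to 0.20, Il6ra -0.28 to 1.64 and Osmr -0.26 to 1.57; without library 3 of both groups Il6ra had -0.28 and Osmr -0.25. In the interaction Il6ra, at -0.01, had 0.0150 with RLE factors, 0.0022 with no filter, 0.0081 with the stricter filter, 0.0141 with DESeq2, 0.20 with the replicate block, 0.35 and 0.58 with limma on FPKM and 1.19 without library 3 of both groups, and a range of -0.44 to 1.47. Osmr ranged from -0.33 to 3.00 and Stat3 from -0.0187 to 1.06 there. RLE factors moved the median of all genes by under 0.1 in each contrast.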

Other observations

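Reg3g, a secreted lectin that STAT3 induces in several mouse tissues, went its own way among the acute-phase genes. It had 108, 109 and 0 reads in CKD JV001 libraries 1 to 3, 1, 4 and 0 in CKD saline, 60, 41 and 62 in sham JV001 and 1415, 0 and 0 in sham saline. CKD JV001 library 3 thus had no read of it, where a count of 0 allows up to 3 reads. That library was the highest for 9 of the 10 genes described above, which include the 3 picked on the first component. Hamp, hepcidin, had 2, 3 and 128 reads in CKD JV001, against 22, 15 and 4 in CKD saline. Both genes were singled out after their values were seen.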
